A study of Mus musculus with 6 samples.

Results

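The 10 genes described here build or steer the cytoskeleton of young neurons, and were measured by RNA-seq in the medial ganglionic eminence (MGE) of mouse, taken on embryonic day 14. They were listed by symbol: Dcx, Map2, Mapt, Stmn2, Stmn3, Tubb3, Ina, Nefl, Nefm and Gap43. All 10 were found among the 49315 genes of the deposited count table, and all 10 passed the filter on low counts with 1409 reads or more in every library. The MGE is the ventral forebrain zone where many cortical interneurons are born. The group labelled KO carried Nkx2.1-Cre, the Ai14 reporter and a floxed Prdm16 allele on both chromosomes, written Prdm16fl/fl in the labels. The group labelled WT carried Nkx2.1-Cre and Ai14 with intact Prdm16 alleles (Prdm16+/+). Each group held 3 libraries, and each library came from total RNA of 1 pool of 3 embryos (6 eminences) of whole dissected tissue. Nkx2.1-Cre recombines in the MGE lineage and not in the vessels or blood that a dissection also contains. How far it acted within the MGE and in neighbouring tissue is not shown by these counts. PRDM16 is a zinc finger protein that regulates transcription in neural progenitors, and the comparison asks which transcripts differ when its gene is deleted in this lineage.

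A neuron that leaves the ventricular zone replaces the vimentin and nestin filaments of its progenitor with neuronal filaments and fills its processes with stabilised microtubules. Doublecortin (Dcx) and the proteins of Map2 and Mapt (tau) bind and stabilise microtubules, whereas the stathmins bind free tubulin and favour disassembly. Alpha-internexin (Ina) is the filament protein that appears early in neurons, and the light and medium neurofilament proteins (Nefl, Nefm) join it as axons mature. GAP43 lies under the membrane of the growth cone, the motile tip of the growing axon. Because the tissue was measured in bulk, fewer neurons and less RNA per neuron cannot be told apart in any value below.

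Library totals ran from 33188277 to 55552298 counts. Values are CPM, the usual depth-scaled unit of read counts, with library sizes multiplied by TMM factors, and fold changes are log2 ratios of KO over WT with p-values adjusted over all 18079 tested genes (edgeR). Prdm16 itself had 53.6, 51.3 and 45.8 CPM in KO libraries 1 to 3, against 55.8, 47.0 and 45.5 CPM in WT libraries 1 to 3 (log2 fold change 0.02, SE 0.09, edgeR adjusted p = 0.884). Counts were per gene, and which exons lie between the loxP sites was not given in the sources used here. Prdm16 therefore does not check the KO label, and every direction rests on that label. Of the genes that define the MGE, Nkx2-1 averaged 769 and 647 CPM in KO and WT libraries, Lhx6 503 and 652 CPM, and Lhx8 234 and 166 CPM, so the labelled tissue was present in both groups. Lhx6 was called lower (log2 fold change -0.38, edgeR adjusted p = 0.00627) and Lhx8 higher (0.49, edgeR adjusted p = 0.00952). Nkx2-1 did not pass (0.25, edgeR adjusted p = 0.112). KO 1 stood apart from the other 5 libraries on the second principal component (16.1% of the variance). KO 1 had 1.92 CPM of Xist and 238.5 CPM of 4 Y-linked genes, KO 3 had 1424 and 0.363 CPM, and the other 4 libraries had both kinds of transcript. Embryonic globin genes were higher and adult beta-globin genes lower in all 3 KO libraries than in any WT library, with values given beside the cell type markers, and the part of this in the results was not tested.

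The 10 genes did not move as a block. Dcx and Mapt fell and Ina rose, each by 26.4% to 26.9%, while 7 genes did not pass the test. Tubb3, the most abundant of the 10, was level between the groups. Thus 3 of 10 genes were called, 1 higher and 2 lower, where 20.2% of all tested genes were called (9.72% higher and 10.5% lower). The median log2 fold change was 0.01 over the 10 genes and 0 over all tested genes. KO and WT libraries did not overlap in 4 of the 10 genes (Ina and Nefm above, Dcx and Map2 below), while 39.9% of all tested genes did not overlap (20.3% above and 19.6% below). The share of the 10 genes whose groups did not overlap is thus that of all genes. Without KO 1, the calls were 2 higher (Ina, Stmn3) and 3 lower (Dcx, Map2, Mapt), in a fit that called 41.5% of all genes (20.6% higher and 20.9% lower). Without any other single library fewer genes were called, among the 10 and over all genes: 2 lower without WT 1 (10.8% of all genes called), 1 higher without KO 2 (7.29%), 1 lower without KO 3 (7.62%), and 0 without WT 2 (6.49%) or WT 3 (6.4%). Without WT 2 and WT 3, 1 and 3 of the 10 were higher and 2 lower in both at an unadjusted edgeR p under 0.05. DESeq2 and limma voom on all 6 libraries also gave 1 higher and 2 lower (21.9% and 19.2% of all genes called). Summed over the 10 genes, the level was 6431, 5860 and 6118 CPM in KO 1 to 3, against 6299, 6757 and 6824 CPM in WT 1 to 3.

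**Figure D1:**
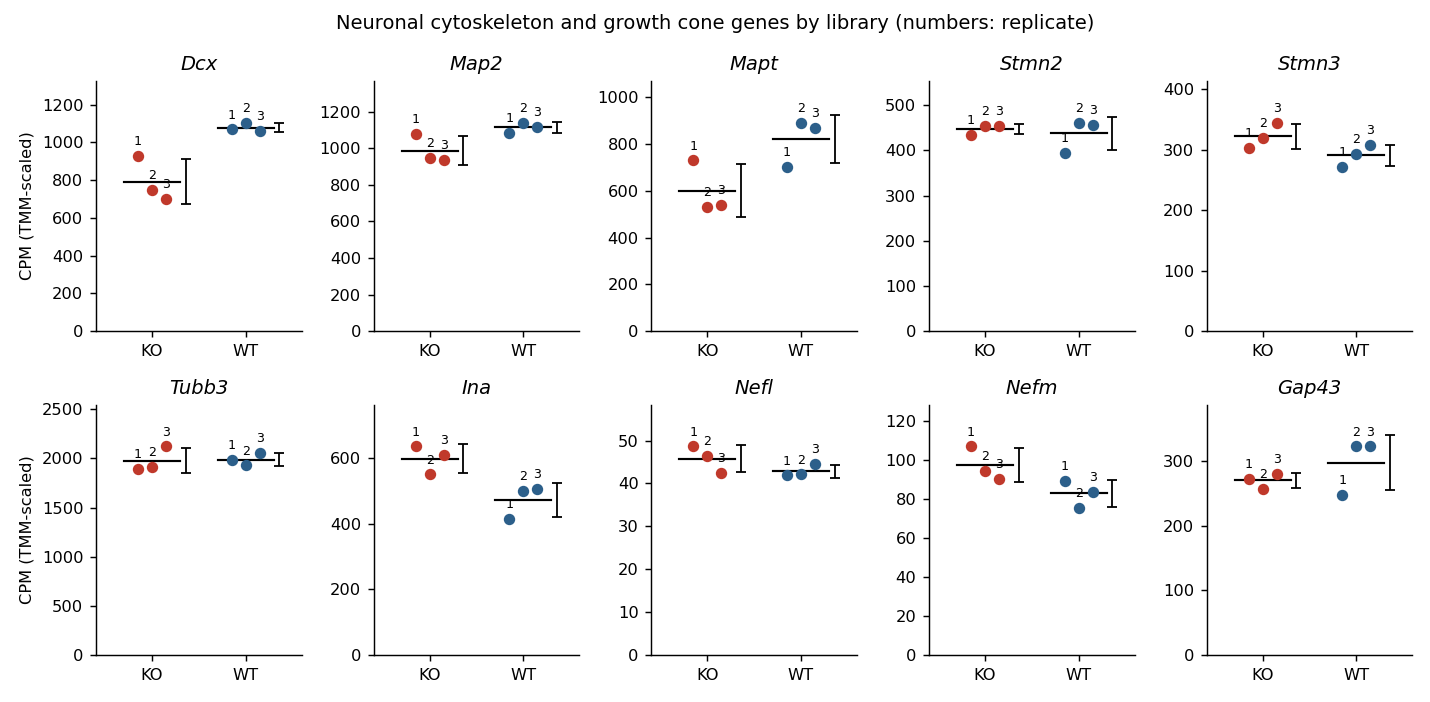
CPM (y axis, from 0) of the 10 genes in each library, with KO left and WT right; points are libraries numbered by replicate, horizontal bars are group means and brackets are ± SD (n = 3 each). Dcx and Map2 lie lower in every KO library than in any WT library, Ina and Nefm lie higher, and in the other 6 genes the groups overlap.

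Dcx (ENSMUSG00000031285, GRCm38 chromosome X, 143855842 to 143933311, minus strand) encodes doublecortin, the microtubule-binding protein of migrating neurons. It had 926.3, 750.3 and 698.7 CPM in KO 1 to 3, against 1069, 1104 and 1061 CPM in WT 1 to 3. All KO libraries lay below all WT libraries, with KO 1 nearest to them. Dcx fell to 792 ± 119 CPM in KO libraries, against 1080 ± 22.6 CPM in WT libraries (SD, n = 3 each), a change of -26.5% (log2 fold change -0.45, SE 0.10, 95% interval -0.66 to -0.23, edgeR adjusted p = 0.0153). Without KO 1 the log2 fold change was -0.57 (edgeR adjusted p = 2.53e-06). Leaving out WT 2, WT 3 or KO 2 ended the call (edgeR adjusted p = 0.0645, 0.0559 and 0.0674) at log2 fold changes of -0.43, -0.46 and -0.41. Since Dcx is X-linked and the pools differed in sex, the Y-linked level was also fitted as a covariate, which gave -0.41 (edgeR adjusted p = 0.00958).

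The 3 doublecortin-like kinase genes that share its microtubule-binding domain moved the same way. Dclk2 had 853.7, 793 and 768 CPM in KO 1 to 3, against 1320, 1231 and 1209 CPM in WT 1 to 3, and fell by 0.64 on the log2 scale (SE 0.07; edgeR, adjusted p = 0.000482). Dclk1 fell by 0.37 (SE 0.08, edgeR adjusted p = 0.0162), with 330 ± 38 CPM in KO and 427 ± 17.9 CPM in WT libraries. Dclk3, at a much lower level, had 2.14 ± 0.537 CPM in KO and 3.63 ± 0.35 CPM in WT libraries (log2 fold change -0.75, SE 0.18, edgeR adjusted p = 0.022). For all 3 of these genes the groups did not overlap. Of all tested genes, 39.9% did not overlap (20.3% above and 19.6% below), and 20.2% were called (9.72% higher and 10.5% lower).

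The sequence upstream of the RefSeq start site is shown for the called genes Dcx and Ina, and for Tubb3 as the abundant gene that was level. This sets side by side the promoters of genes that moved down, moved up and did not pass. RefSeq windows (GRCm38.p6) were found for 5 of the 10 genes (Dcx, Tubb3, Stmn3, Map2 and Ina). Capitals mark matches, on either strand, to the E-box CAGCTG, to a second form of the E-box read by proneural factors, CAGATG, to the TATA box TATAAA, to the GC box GGGCGG, to the cyclic AMP response element TGACGTCA, or to a stretch of the REST element, TCAGCACC. No marked motifs overlap each other in these windows, and for Dcx the first of 2 annotated start sites is shown. The gene starts in GENCODE M21 lie inside the windows of Dcx (143933311), Tubb3 (123411424) and Map2 (66175273). Part of these windows, and of their marked motifs, can thus lie within the annotated gene. Each run holds the 250 bases before the RefSeq start site, 5′ to 3′ on the gene's strand. The runs are Dcx at chrX:143933220-143933469 (minus), Ina at chr19:47014431-47014680 (plus) and Tubb3 at chr8:123411303-123411552 (plus).
Dcx: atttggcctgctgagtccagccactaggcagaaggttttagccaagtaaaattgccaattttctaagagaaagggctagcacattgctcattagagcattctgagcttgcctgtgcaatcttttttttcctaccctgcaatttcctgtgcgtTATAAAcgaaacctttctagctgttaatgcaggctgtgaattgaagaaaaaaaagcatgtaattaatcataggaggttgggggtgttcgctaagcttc
Ina: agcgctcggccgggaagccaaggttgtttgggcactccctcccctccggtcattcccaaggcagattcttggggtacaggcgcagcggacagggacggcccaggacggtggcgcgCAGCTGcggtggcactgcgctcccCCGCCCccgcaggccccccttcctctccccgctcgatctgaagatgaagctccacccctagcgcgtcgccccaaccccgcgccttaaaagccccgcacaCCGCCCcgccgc
Tubb3: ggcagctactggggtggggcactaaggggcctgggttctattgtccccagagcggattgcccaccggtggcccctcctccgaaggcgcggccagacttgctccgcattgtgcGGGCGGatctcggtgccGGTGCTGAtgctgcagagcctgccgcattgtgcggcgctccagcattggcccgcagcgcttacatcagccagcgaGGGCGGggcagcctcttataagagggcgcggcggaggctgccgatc
The windows differed in base composition, with 41.6% G and C for Dcx, 70.8% for Ina and 68% for Tubb3. TATAAA was in the Dcx window and in 12.4% of all 32851 RefSeq windows of this length. CAGCTG was in the Ina window (13% of all windows), and GGGCGG in those of Ina, Tubb3 and Map2 (32.7%). TCAGCACC was in the Tubb3 window (1.32%), CAGATG in that of Stmn3 (14.4%), and TGACGTCA in none of the 5 (1.55%). A match in such a window is a description of its letters, and no motif was shared by Dcx and Ina.

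Mapt (ENSMUSG00000018411, chromosome 11, 104231390 to 104332090, plus strand) encodes tau, which binds axonal microtubules. It had 730.4, 530.7 and 540 CPM in KO 1 to 3, against 703.6, 891.4 and 870.5 CPM in WT 1 to 3. KO 1 lay above WT 1, so the groups overlapped, while KO 2 and KO 3 lay below all WT libraries. Mapt averaged 600 ± 113 CPM in KO and 822 ± 103 CPM in WT libraries, a change of -26.9% (log2 fold change -0.45, SE 0.13, 95% interval -0.76 to -0.15, edgeR adjusted p = 0.0439). That p lies close to the threshold. The call was lost without WT 2 (edgeR adjusted p = 0.148), WT 3 (0.135), KO 2 (0.145) or KO 3 (0.157), at log2 fold changes of -0.37 to -0.41, and with the Y-linked level as a covariate (edgeR adjusted p = 0.0627). Without KO 1 the value was -0.61 (edgeR adjusted p = 0.00364).

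Map2 (ENSMUSG00000015222, chromosome 1, 66175273 to 66442583, plus strand) encodes the microtubule-associated protein of cell bodies and dendrites. Its levels were 1078, 945.1 and 933.9 CPM in KO 1 to 3, against 1084, 1139 and 1116 CPM in WT 1 to 3. KO 1 lay just under WT 1, and the other KO libraries were lower. The change of -11.4% did not pass (log2 fold change -0.18, SE 0.07, 95% interval -0.34 to -0.01, edgeR adjusted p = 0.111), and without KO 1 Map2 was called lower (log2 fold change -0.24, edgeR adjusted p = 0.000846).

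Tubb3 (ENSMUSG00000062380, chromosome 8, 123411424 to 123422015, plus strand) encodes the beta-tubulin characteristic of neurons. It had 1894, 1912 and 2122 CPM in KO 1 to 3, against 1981, 1928 and 2055 CPM in WT 1 to 3. KO libraries spanned the whole range of WT libraries. The log2 fold change was -0.01 with a 95% interval of -0.17 to 0.15 (edgeR adjusted p = 0.943), so a change as large as that of Dcx lies outside the interval.

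The stathmin genes Stmn2 (ENSMUSG00000027500, chromosome 3, 8509360 to 8561606) and Stmn3 (ENSMUSG00000027581, chromosome 2, 181306459 to 181314500) encode membrane-anchored proteins of growth cones that bind tubulin. Stmn2 had 434.4, 453.6 and 454.7 CPM in KO 1 to 3, against 394.9, 461.2 and 457 CPM in WT 1 to 3 (log2 fold change 0.03, 95% interval -0.13 to 0.19, edgeR adjusted p = 0.779). Stmn3 had 303.3, 318.8 and 344.5 CPM in KO 1 to 3, against 272.1, 292.4 and 307.6 CPM in WT 1 to 3. In both genes the groups overlapped, with WT 1 the lowest library. The 95% interval of Stmn3 was -0.01 to 0.30 around 0.15 (edgeR adjusted p = 0.151), and Stmn3 was called higher without KO 1 (log2 fold change 0.20, edgeR adjusted p = 0.0132). With each library's length trend removed, as described further on, Stmn3 was at 0.02 (edgeR adjusted p = 0.806). With KO 1 left out as well it was also at 0.02 (edgeR adjusted p = 0.766). The relatives Stmn1 and Stmn4 did not pass either. Stmn1, which progenitors also express, averaged 1870 and 1700 CPM in KO and WT libraries (log2 fold change 0.14, edgeR adjusted p = 0.174), and Stmn4 averaged 175 and 163 CPM (0.11, edgeR adjusted p = 0.233). The groups overlapped in Stmn1. In Stmn4 they did not (172 to 179.2 CPM in KO and 150.8 to 170.6 CPM in WT libraries), as in 39.9% of all tested genes.

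Ina (ENSMUSG00000034336, chromosome 19, 47014698 to 47025327, plus strand) rose. It had 635.8, 550.6 and 610.4 CPM in KO 1 to 3, against 413.8, 501.3 and 506.2 CPM in WT 1 to 3. Each KO library lay above each WT library, and WT 1 was the lowest of the 6. Ina averaged 599 ± 43.7 CPM in KO and 474 ± 52 CPM in WT libraries, a change of 26.4% (log2 fold change 0.34, SE 0.09, 95% interval 0.14 to 0.54, edgeR adjusted p = 0.0293). With WT 1, WT 2, WT 3 or KO 3 left out the call was lost (edgeR adjusted p = 0.0799, 0.0688, 0.0632 and 0.0821), at log2 fold changes of 0.26, 0.38, 0.39 and 0.33. Without KO 1 it was 0.30 (edgeR adjusted p = 0.0423). The annotation gives Ina 456 exonic bases in common with Nt5c2 on the other strand, and the strand setting of the counting was not given in the sources used here. Nt5c2 had 72.7 ± 4.36 CPM in KO and 69.5 ± 2.6 CPM in WT libraries (log2 fold change 0.07, edgeR adjusted p = 0.465).

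The neurofilament genes were far lower in level. Nefm (ENSMUSG00000022054, chromosome 14, 68082590 to 68124846, minus strand) had 107.1, 94.6 and 90.4 CPM in KO 1 to 3, against 89.5, 75.7 and 83.6 CPM in WT 1 to 3. KO 3 exceeded WT 1 by little, and the groups did not overlap. The log2 fold change of 0.23 (SE 0.08, 95% interval 0.05 to 0.41) did not pass (edgeR adjusted p = 0.0708). Nefm was called higher in 4 of 18 alternatives, thresholds aside. It passed when the filter on low counts was dropped (edgeR adjusted p = 0.00876) and with the Y-linked covariate (0.0377). The other calls came with the length trend removed, as described further on. Nefm did not pass with any single library left out (edgeR adjusted p = 0.0636 to 0.247). Neither DESeq2 (adjusted p = 0.0547) nor limma voom (adjusted p = 0.0811) called it.

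Nefl (ENSMUSG00000022055, chromosome 14, 68083863 to 68089095, plus strand) had 48.6, 46.4 and 42.4 CPM in KO 1 to 3, against 41.9, 42.1 and 44.5 CPM in WT 1 to 3 (log2 fold change 0.10, 95% interval -0.05 to 0.25, edgeR adjusted p = 0.326). A long annotated Nefm transcript runs across Nefl on the opposite strand and shares 1108 exonic bases with it, so the split of reads between these neighbours is uncertain. Nefh, the heavy neurofilament gene, was near 3 CPM in both groups (2.97 ± 0.252 in KO and 2.85 ± 0.316 in WT libraries). Prph, which encodes peripherin, had between 1 and 12 reads per library and was not tested.

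Gap43 (ENSMUSG00000047261, chromosome 16, 42248442 to 42340651, minus strand) had 273.3, 257.8 and 281.1 CPM in KO 1 to 3, against 248.2, 323.1 and 323.2 CPM in WT 1 to 3. WT 1 was the lowest library and the other WT libraries the highest, so the spread within WT exceeded the difference between the group means (271 ± 11.8 and 298 ± 43.3 CPM in KO and WT). The log2 fold change was -0.14 (95% interval -0.36 to 0.08, edgeR adjusted p = 0.331). Basp1, which encodes a related growth cone protein, averaged 835 CPM in KO and 780 CPM in WT libraries (log2 fold change 0.10, edgeR adjusted p = 0.367).

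**Figure D2:**
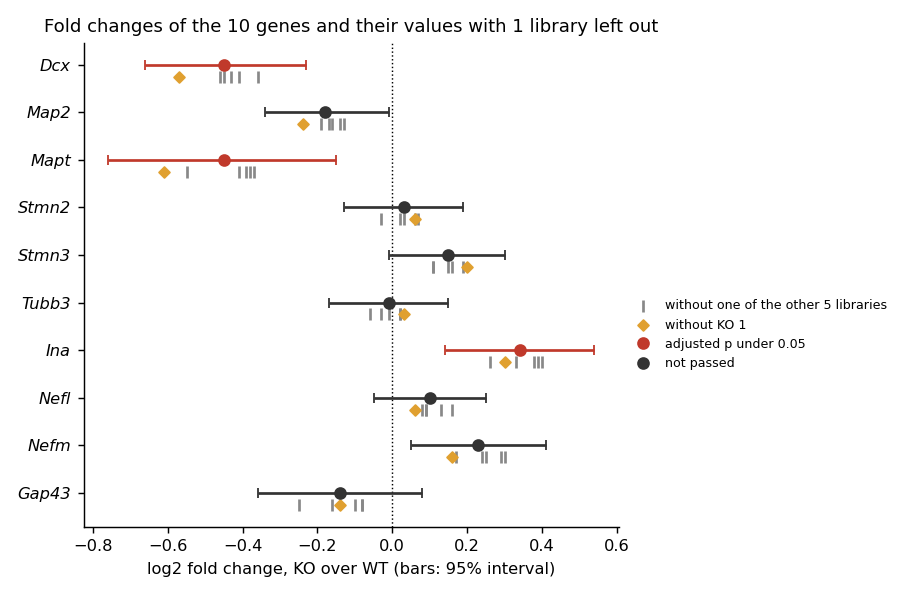
Log2 fold change of KO over WT (x axis) for the 10 genes, with 95% intervals; red points passed an adjusted p under 0.05, diamonds are values without KO 1 and ticks are values without each of the other 5 libraries. Dcx and Mapt (both -0.45) and Ina (0.34) passed, and Dcx, Map2 and Mapt moved further down without KO 1.

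Between genes, levels were compared per kilobase of exonic length (CPM per kb), which rests on all annotated exons of a gene and so understates genes with rarely used exons. In KO libraries Tubb3 (1060 CPM per kb) and Stmn3 (284) led, followed by Ina (185), Gap43 (178), Stmn2 (79.9), Mapt (79.7), Dcx (62.6), Map2 (59.9), Nefm (16.8) and Nefl (13.6). Neighbours in that order overlapped between KO libraries for Ina and Gap43, Stmn2 and Mapt, Mapt and Dcx, and Dcx and Map2. In WT libraries the order was Tubb3 (1060), Stmn3 (256), Gap43 (196), Ina (146), Mapt (109), Dcx (85.2), Stmn2 (78.1), Map2 (67.6), Nefm (14.3) and Nefl (12.7), and among neighbours only Nefm and Nefl overlapped. Ina thus stood beside Gap43 in KO and below it in WT, and Mapt stood beside Stmn2 in KO and above it in WT.

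**Figure D3:**
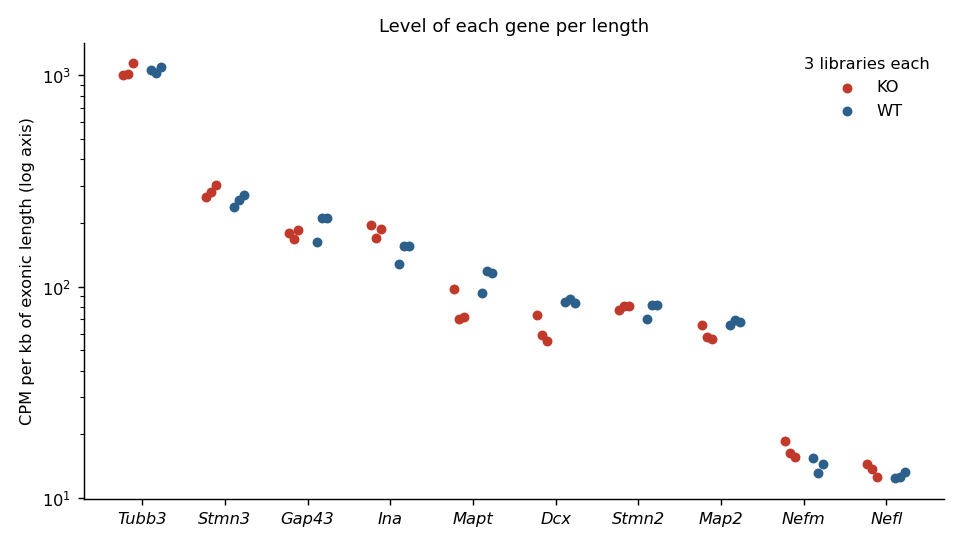
Level of each gene in CPM per kb of exonic length (log y axis) in the 3 KO (left of each pair) and 3 WT libraries. Tubb3, near 1060 CPM per kb in both groups, exceeds the next gene, Stmn3, several-fold, and Nefm and Nefl lie lowest.

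Set against Tubb3 within the same library, which removes the scaling between libraries, Dcx counts were 48.9%, 39.2% and 32.9% of Tubb3 counts in KO 1 to 3 and 54%, 57.2% and 51.6% in WT 1 to 3. Mapt counts were 38.6%, 27.8% and 25.4% of those of Tubb3 in KO and 35.5%, 46.2% and 42.4% in WT libraries. Ina counts were 33.6%, 28.8% and 28.8% in KO and 20.9%, 26% and 24.6% in WT libraries. Dcx and Ina therefore separated the groups on this scale too, in opposite directions, and Mapt did not. Stmn3, which overlapped in CPM, also separated them here, with 16%, 16.7% and 16.2% in KO and 13.7%, 15.2% and 15% in WT libraries. Map2 and Nefm, which did not overlap in CPM, overlapped here. Map2 counts were 56.9%, 49.4% and 44% in KO and 54.7%, 59% and 54.3% in WT libraries. Nefm counts were 5.65%, 4.95% and 4.26% in KO and 4.52%, 3.92% and 4.07% in WT libraries. The share of all genes that separate on this scale was not computed. Since Tubb3 was level between the groups, this scale lies close to that of CPM.

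The 3 neuronal intermediate filament genes together (Ina, Nefl and Nefm) had 0.418, 0.362 and 0.35 counts per Tubb3 count in KO 1 to 3, against 0.275, 0.321 and 0.309 in WT 1 to 3. The groups did not overlap, and the mean log2 ratio was 0.32 higher in KO libraries. An exact permutation test, two-sided, gave p = 0.1, which is the smallest p for 3 libraries against 3. Ina made up most of this sum. Nes and Vim, which encode the progenitor filament proteins nestin and vimentin, rose more. Nes averaged 683 ± 20.3 CPM in KO and 430 ± 34.7 CPM in WT libraries (log2 fold change 0.67, SE 0.07, edgeR adjusted p = 0.00047). Vim averaged 983 ± 134 and 593 ± 29.1 CPM (0.73, SE 0.10, edgeR adjusted p = 0.00154). The neuronal filament counts per progenitor filament count were 0.527, 0.402 and 0.418 in KO and 0.498, 0.63 and 0.64 in WT libraries, which overlapped (log2 difference -0.39, exact two-sided permutation p = 0.2).

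Of 101 tested genes in 8 further lists of cytoskeletal and growth cone genes, 10 rose, 15 fell and 76 did not pass, so 24.8% were called, against 20.2% of all genes. The median log2 fold change of these 101 genes was -0.07, and without KO 1 the calls were 21 higher and 43 lower. That fit called 41.5% of all genes, 20.6% higher and 20.9% lower. Without any other single library 3 to 5 were higher and 4 to 10 lower, in fits that called 6.4% to 10.8% of all genes. Of the called genes named from these lists, Dclk2, Dpysl4, Nes, Vim, Shtn1, Ablim1 and Prkca passed without each of the 6 libraries in turn, and every other one lost its call without at least 1 library other than KO 1. In the tubulin list 3 of 12 tested members rose, 0 fell and 9 did not pass (0 lower at an unadjusted edgeR p under 0.05, 0 by DESeq2 and 0 by limma voom). With each library's length trend removed, as described further on, Tubb4b was the single tubulin gene called, and Tuba1c (edgeR adjusted p = 0.0773) and Tubg1 (0.0831) no longer passed. Tuba1c had 117.2, 73.5 and 61 CPM in KO 1 to 3, against 42, 37.9 and 39.1 CPM in WT 1 to 3 (log2 fold change 1.08, SE 0.24, edgeR adjusted p = 0.0286). The KO libraries were all above the WT ones, and KO 1 was the highest. Tubb4b rose by 0.31 (SE 0.08, edgeR adjusted p = 0.0223) and the centrosomal gamma-tubulin gene Tubg1 by 0.27 (SE 0.08, edgeR adjusted p = 0.0484). The abundant neuronal genes Tuba1a (5090 and 5260 CPM in KO and WT, log2 fold change -0.05) and Tubb2b (3220 and 3110 CPM, 0.05) did not pass. Tubulin genes are near-identical over much of their coding sequence, so reads can be split between them and these values are uncertain.

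Of 5 stathmin and doublecortin relatives, 3 fell (the Dclk genes), 0 rose and 2 did not pass. At an unadjusted edgeR p under 0.05, by DESeq2 and by limma voom 0 rose as well. Among all tested genes edgeR called 20.2%, with 9.72% higher and 10.5% lower. Of 19 other microtubule-associated protein genes none passed (0 by edgeR, DESeq2 and limma voom; 2 higher and 4 lower at an unadjusted edgeR p under 0.05). Map1b, the abundant partner of Map2, had 2260, 1803 and 1803 CPM in KO and 2285, 2353 and 2257 CPM in WT libraries (log2 fold change -0.23, edgeR adjusted p = 0.101). Without KO 1 this list had 2 higher and 10 lower genes, where 20.6% of all genes were higher and 20.9% lower. Among the 5 collapsin response mediator genes, whose products carry semaphorin signals to the growth cone, 1 rose and 4 did not pass by edgeR (1 higher and 2 lower at an unadjusted p under 0.05, by DESeq2 and without KO 1; 1 higher and 0 lower by limma voom). The riser was Dpysl4, with 206 ± 16.2 CPM in KO and 161 ± 8.93 CPM in WT libraries (log2 fold change 0.35, SE 0.07, edgeR adjusted p = 0.0105). Dpysl3 (-0.30, edgeR adjusted p = 0.0605, DESeq2 adjusted p = 0.0178) and Dpysl5 (-0.22, edgeR adjusted p = 0.0775, DESeq2 adjusted p = 0.0427) were called lower by DESeq2 and not by edgeR.

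Growth cone and actin regulators had 10 of 23 members called (43.5%), 2 higher and 8 lower. The share of all tested genes called was 20.2% (9.72% higher and 10.5% lower). Without KO 1 the counts were 4 higher and 9 lower, in a fit that called 41.5% of all genes (20.6% higher and 20.9% lower). Shtn1, which encodes shootin, a linker of actin flow to adhesion in growth cones, had 62.3, 50.1 and 46.3 CPM in KO 1 to 3, against 108.6, 102.5 and 105.2 CPM in WT 1 to 3. The groups lay far apart, and Shtn1 fell by 0.99 on the log2 scale (SE 0.10, edgeR adjusted p = 0.000334). Ablim1, an actin-binding protein gene, fell by 0.61 (SE 0.12, edgeR adjusted p = 0.00896), and the adhesion gene Ncam1 fell by 0.38 (SE 0.09, edgeR adjusted p = 0.0205). Pfn1, which encodes the actin monomer-binding protein profilin, averaged 287 ± 38.8 CPM in KO and 217 ± 13.4 CPM in WT libraries (log2 fold change 0.40, edgeR adjusted p = 0.0191).

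Axonal transport genes had 1 of 20 tested members higher and 2 lower, which is 15% called against 20.2% of all genes. Without KO 1 the counts were 3 higher and 13 lower, where 20.6% of all genes were higher and 20.9% lower. The kinesin genes Kif3a (log2 fold change -0.24, edgeR adjusted p = 0.0358) and Kif3c (-0.32, edgeR adjusted p = 0.0486) fell and the kinesin light chain gene Klc2 rose (0.19, edgeR adjusted p = 0.0343). Kif1a, a carrier of synaptic vesicle precursors, had a value of -0.41 (edgeR adjusted p = 0.0609). In the list of kinases that act on cytoskeletal proteins 1 of 13 rose (Mark1, 0.18, edgeR adjusted p = 0.0407) and 2 fell. Of those 2, Prkca, a kinase that phosphorylates GAP43, had 30.5, 26 and 27.2 CPM in KO 1 to 3, against 65, 62.1 and 61 CPM in WT 1 to 3 (log2 fold change -1.17, SE 0.07, edgeR adjusted p = 2.19e-05). Mapk10 fell by 0.34 (SE 0.07, edgeR adjusted p = 0.0117).

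**Figure D4:**
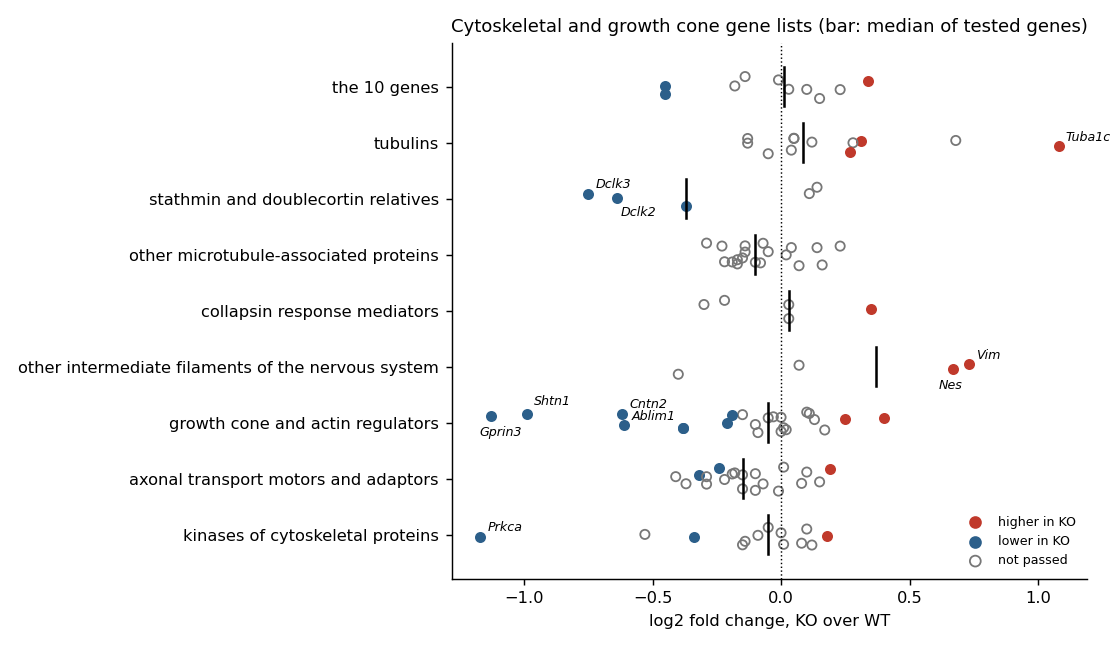
Log2 fold change of KO over WT (x axis) of each tested gene in the 10 genes and the 8 further lists; red points were called higher, blue points lower, open points did not pass and bars are medians. Called genes beyond 0.55 in either direction are named, and the 19 other microtubule-associated protein genes hold no called gene.

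Values of the 10 genes stand beside shifts in other cell type markers. The counts of called markers below are to be read against all tested genes, of which 20.2% were called (9.72% higher and 10.5% lower). In 39.9% of all tested genes the groups did not overlap (20.3% above and 19.6% below). Neuron markers outside the cytoskeleton summed to 3348 to 3527 CPM in KO and 3772 to 3940 CPM in WT libraries, and 5 of 12 fell, 0 rose and 7 did not pass (0 rose by DESeq2 and limma voom). Of its most abundant genes, Nsg2 averaged 765 and 932 CPM in KO and WT (log2 fold change -0.28, edgeR adjusted p = 0.0194), whereas Elavl3 (697 and 734 CPM) and Nsg1 (398 and 413 CPM) did not pass. Radial glia and progenitor markers summed to 2495 to 2756 CPM in KO and 2275 to 2506 CPM in WT libraries, which overlapped. Of these 10 genes 6 were higher and 1 lower (Slc1a3, log2 fold change -0.65, edgeR adjusted p = 0.00201). The abundant Sox2 rose (0.32, edgeR adjusted p = 0.0141). Top2a (609 and 690 CPM in KO and WT, edgeR adjusted p = 0.119) and Mki67 (455 and 539 CPM, edgeR adjusted p = 0.0585) did not pass. In both, all KO libraries lay below all WT libraries. Striatal and lateral eminence markers, whose neurons also express the 10 genes, summed to 416.2 to 538.6 CPM in KO and 635.2 to 832.1 CPM in WT libraries, with 7 of 8 lower. Cortical excitatory markers had 4 of 9 higher and 1 lower (Bcl11b, which striatal neurons share and which dominates the sum of 370.4 to 465 CPM in KO and 568.8 to 626 CPM in WT). Red blood cell markers had 3 of 9 higher and 2 lower, and these were split by globin type. The embryonic globin genes, which give way to adult forms during gestation, were higher: Hbb-y averaged 812 ± 208 CPM in KO and 133 ± 24.1 CPM in WT libraries (log2 fold change 2.61, edgeR adjusted p = 0.000736), Hba-x 140 ± 32.5 and 18 ± 4.05 CPM (2.96, edgeR adjusted p = 0.000663), and Hbb-bh1 21 ± 9.99 and 0.816 ± 0.325 CPM (4.67, edgeR adjusted p = 0.00417). The adult beta-globin genes, whose near-identical sequences make the split between them uncertain, were lower. Hbb-bs averaged 72.1 ± 14.2 CPM in KO and 210 ± 1.43 CPM in WT libraries (-1.54, edgeR adjusted p = 0.000111), and Hbb-bt 41.4 ± 2.13 and 75.7 ± 0.623 CPM (-0.87, edgeR adjusted p = 4.04e-05). In none of these 5 genes did the groups overlap. The part of these shifts, those of neurons, progenitors and globins alike, in the values of the 10 genes was not tested. Markers of sensory and motor neurons, which are rich in Nefl, Nefm and Prph, summed to 4.404 to 4.92 CPM in KO and 5.42 to 6.94 CPM in WT libraries. Endothelial (2 of 7), pericyte (5 of 5) and microglia markers (2 of 5) had lower members and 0 higher ones by edgeR, DESeq2 and limma voom, and oligodendrocyte precursor markers had 1 of 4 in each direction.

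Exonic length moved with the groups as well. Per doubling of exonic length, a library's log2 CPM departed from the mean of all libraries by 0.012 in KO 1, -0.043 in KO 2 and -0.055 in KO 3, against 0.028, 0.035 and 0.023 in WT 1 to 3. Long transcripts were thus relatively lower in KO 2 and KO 3, and Map2 (16.4 kb) and Dcx (12.6 kb) are the longest of the 10 genes, before Mapt (7.53 kb). With each library's length trend removed, Dcx stayed lower at -0.29 (SE 0.07, edgeR adjusted p = 0.0137), Ina stayed higher at 0.30 (SE 0.09, edgeR adjusted p = 0.0359) and Nefm was called higher at 0.27 (edgeR adjusted p = 0.0262). Stmn3, the shortest of the 10 genes (1.14 kb), was at 0.02 (edgeR adjusted p = 0.806) in place of 0.15. Gap43 (-0.26, edgeR adjusted p = 0.0849) and Tubb3 (-0.12, edgeR adjusted p = 0.182) did not pass. Mapt no longer passed (-0.37, edgeR adjusted p = 0.0553), and Map2 was at 0.02 (edgeR adjusted p = 0.828). That made 2 of the 10 genes higher and 1 lower, where 19.6% of all genes were called (10.2% higher and 9.38% lower). All 3 Dclk genes were still called lower, with Dclk1 at -0.19 (edgeR adjusted p = 0.0346) in place of -0.37. The tubulin list then had 1 of 12 higher (Tubb4b), and growth cone and actin regulators had 2 higher and 5 lower of 23. With the trend removed and KO 1 left out, a combination chosen after the data were seen, Dcx was at -0.36 (edgeR adjusted p = 6.12e-05), Mapt at -0.50 (0.018) and Ina at 0.24 (0.083). There 1 of the 10 genes (Nefm) was higher and 2 were lower, in a fit that called 37.6% of all genes (19.8% higher and 17.7% lower).

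**Figure D5:**
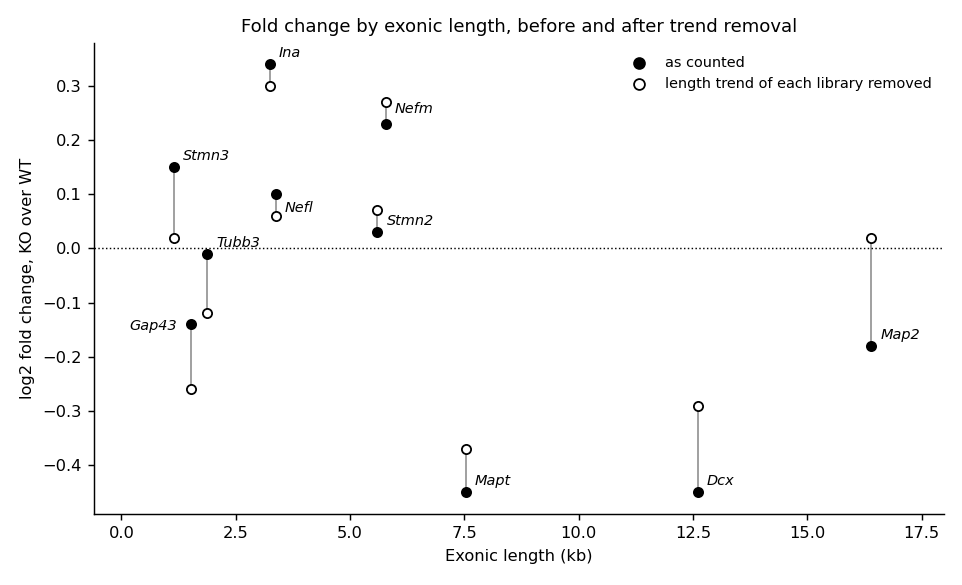
Log2 fold change of KO over WT (y axis) against exonic length in kb (x axis) for the 10 genes, as counted (filled) and with each library's length trend removed (open). Dcx goes to -0.29 and Map2 to 0.02 when the trend is removed, while Ina is at 0.30.

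The mean profile of the 10 genes was flat, since rises and falls cancelled: their mean log2 CPM minus the WT mean was 0.04, -0.09 and -0.07 in KO 1 to 3, against -0.09, 0.03 and 0.06 in WT 1 to 3. Among 9903 other protein-coding genes with a mean of at least 10 CPM, Rasl10b, Svop, Acvr1b, Mkrn1 and Prmt2 lay nearest to that profile over the 6 libraries (root mean square difference 0.00922 to 0.0191 on the log2 scale).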

How the data were processed

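The submitters' processing notes name Trimmomatic 0.36 and STAR 2.5.2b, then featureCounts in Subread 1.5.2, DESeq2, and GRCm38 as the build. Annotation release and strand setting were not given in the sources used here. The table the authors deposited holds raw whole-number read counts by Ensembl gene ID, and every test started from it. A deposited table of normalized values was not used here, since 2 of its columns share a name.

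Columns were matched to samples by title. Symbols, positions and exonic lengths came from GENCODE M21 (48970 of 49315 gene IDs found). The filterByExpr rule, with a minimum count of 10 and a minimum total of 15, left 18079 genes. Libraries were scaled with TMM, and KO was compared with WT with edgeR 4.0.16 (R 4.3.3), quasi-likelihood test with robust spread, unpaired, with Benjamini-Hochberg adjustment over all tested genes at 0.05. Each SE is the absolute log2 fold change divided by the root of the F statistic, and the 95% intervals use it. The edgeR fit was checked on simulated counts of well-counted genes, with planted changes larger than those of the called members. That check did not cover changes as small as theirs or the removal of the length trend. Log2 CPM used a prior count of 2. Ratios were tested by exact permutation over libraries.

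The members and lists were chosen with earlier results of these data known. Named genes were all members, up to 4 genes per further list with the smallest p, fixed family partners, and up to 3 abundant genes per marker list. Alternatives were other scalings and filters, DESeq2 1.42.0, limma voom (limma 3.58.1), no robust spread, replicate number as a blocking term, single libraries left out, other thresholds, a Y-linked covariate (log2 of the CPM sum plus 1) and removal of each library's length trend. Per the labels, the libraries come from separate pools of embryos. Because reads carry no molecular identifiers, they do not count independent molecules.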

Additional observations from a re-analysis of the deposited data

How the results depend on the processing

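Counts of calls depended most on the libraries used, and fits with 1 library left out called 6.4% to 41.5% of all genes. Leaving out 1 library gave 0 to 2 of the 10 genes higher and 0 to 3 lower, and 3 to 21 higher and 4 to 43 lower among the other cytoskeletal genes, with the highest counts of lower calls without KO 1 and 0 of the 10 genes called without WT 2 or WT 3 (edgeR; 1 and 3 higher, and 2 and 2 lower, at an unadjusted p under 0.05). With no filter on low counts, with the Y-linked covariate and with the length trend removed, the 10 genes had 2 higher and 1 lower (13.7%, 17.6% and 19.6% of all genes called). With the replicate block they had 0 higher and 1 lower (edgeR; 3 and 2 at an unadjusted p under 0.05; 11.5% of all genes called), the calls of Mapt and Ina were lost (edgeR adjusted p = 0.0959 and 0.0708), and the other genes had 6 higher and 7 lower. Same-numbered libraries did not deviate together (correlations -0.08, -0.12 and 0.03), so the numbers were not taken to pair the pools; under the block the log2 ratio of neuronal filaments to Tubb3 was 0.32 (exact sign-flip p = 0.25) and to progenitor filaments -0.39 (exact sign-flip p = 0.5). By construction, a threshold of 0.01 gave 0 and 0 of the 10 genes and 2 higher and 4 lower others (5.22% of all genes called). A threshold of 0.1 gave 2 higher and 2 lower of the 10, and 12 higher and 24 lower others (30.5% of all genes called). Without KO 1 and with the length trend removed, chosen after the data were seen, 19 other genes were higher and 29 lower (37.6% of all genes called). DESeq2, limma voom, the other scalings and the stricter filter kept the counts for the 10 genes at 1 higher and 2 lower (19.2% to 23.8% of all genes called). Over 200 pairs of a member and an alternative, 173 kept their side of the threshold, 20 lost a call, 7 gained one and 0 reversed a called direction. Over 18 alternatives, thresholds aside, log2 fold changes ran from -0.57 to -0.29 for Dcx, -0.61 to -0.37 for Mapt and 0.24 to 0.40 for Ina. With 3 libraries a group, a ratio cannot reach p under 0.1.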
